A study of Ovis aries with 16 samples.

Results

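The genes described here are 44 named regulators and effectors of the cell division cycle. All 44 were found among the 28524 rows of the deposited expression table. These genes were chosen by symbol, with earlier results of these data known. They comprise 5 D-type cyclins and their kinases, 7 cyclins of the E, A and B types with their kinases, 11 genes of DNA replication and nucleotide supply, 9 mitotic genes, 6 members of the RB and E2F families, and 6 inhibitors or arrest-linked genes. RNA sequencing had been performed on liver and on vastus lateralis muscle from 8 female Suffolk sheep, both tissues coming from each animal, so that 16 libraries were available. The BPA group (sheep 910, 918, 977 and 984) was born to mothers injected subcutaneously every day, between days 30 and 90 of gestation, with 0.5 mg/kg bisphenol A dissolved in corn oil. Bisphenol A (BPA) is a plasticizer with weak oestrogen-like activity. The control group (sheep 902, 908, 924 and 928) was born to mothers given corn oil alone. All 8 animals were sampled at about 21 months of age, fasted for 48 hours, at the late follicular stage of an oestrous cycle that had been synchronized. Prostaglandin F2a (PGF2a) was given at an interval of 11 days, and tissues were harvested 24 hours after PGF2a in both groups. No cell type was sorted, so each library is bulk tissue, and each group holds 4 animals.

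Most hepatocytes of an adult liver rest outside the cell cycle but can re-enter it, for example after injury, whereas the nuclei of muscle fibres have left it permanently and only satellite cells and other mononuclear cells of muscle divide. D-type cyclins bind CDK4 and CDK6 and begin to phosphorylate the RB family of proteins, which releases the E2F transcription factors and turns on genes for DNA synthesis. Cyclins E and A with CDK2, and later cyclins A and B with CDK1, carry the cell through replication and mitosis. CDKN1A (p21) and CDKN1B (p27) bind and inhibit these complexes, and CDKN1A, MDM2 and CCNG1 are textbook targets of the tumour suppressor p53.

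Values are normalized read counts, that is, reads divided by 1 size factor for each library, and are compared between samples of the same gene, since they are not corrected for gene length. Values of a group are listed in the order of the animal numbers given above. In units of 1e6 reads (M), the liver libraries held 4.66 to 17.92 M in the BPA group and 4.39 to 19.28 M in controls, and the muscle libraries 15.15 to 26.54 M in the BPA group and 16.16 to 28.54 M in controls. In liver, 43 of the 44 genes had a mean of at least 10 normalized counts and were tested, whereas in muscle 33 were. The 11 genes below that mean in muscle (CCNA2, CCNB1, CCNB2, CDK1, CDC6, RRM2, TYMS, BUB1B, AURKA, AURKB and CDC20) never exceeded 15.6 normalized counts or 19 reads in any muscle library. Hepatocyte markers (6 of 8 listed were matched by symbol) summed to 214557 to 971292 in BPA livers and 40148 to 1194871 in control livers, against at most 11730 in any muscle. Skeletal muscle fibre markers (5 of 6 matched) summed to at least 1458437 in every muscle and at most 169.7 in any liver. In bulk tissue, fewer cells of a type and less RNA per cell cannot be told apart.

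The control liver 902 stood apart from the other 7 livers in its proliferation genes. It held the highest value of the 8 livers for 30 of the 44 genes. For 7 genes (CCNA2, CCNB1, CDK1, RRM2, AURKA, AURKB and CDC20) the mean of 10 was reached only through this library. Among the 36 genes that reached it over the other 7 livers, it was highest for 22 (61.1%), compared with 20.1% of all 15283 such genes. It was highest for 8 of the 9 mitotic genes, 8 of the 11 replication genes and 6 of the 7 cyclin E, A and B genes. These counts by role used no minimum mean, so they include the 7 genes named above and the untested CDC6. No share of all genes is given for them. For 7 of these 36 genes (19.4%) it exceeded the mean of the other 3 control livers more than 5 times, compared with 5.44% of all such genes. The genes named in the next paragraph were chosen after their values in this library had been seen.

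MKI67, which encodes the Ki-67 protein used to mark dividing cells, measured 918 normalized counts in the control liver 902, where it rested on 487 reads. It measured 79.5, 41.6, 102 and 108 in the 4 BPA livers and 71.6, 81.8 and 111 in the other 3 control livers. TOP2A, the topoisomerase that untangles replicated chromosomes, measured 582 in the control liver 902 and 17.5 to 52.1 in the other 7 livers. None of these 7 livers came near the control liver 902 for either gene. RRM2, the regulated subunit of ribonucleotide reductase, was 28.3 times the mean of the other 3 controls (58 reads), BUB1B, a spindle checkpoint kinase, 21.1 times, and CDK1, the mitotic kinase, 20.3 times (37 reads). The mitotic cyclin genes CCNA2 and CCNB1 were at 12.7 and 10.5 times. CDK6, a partner of the D-type cyclins, reached 1035 normalized counts in the control liver 902, against 142 to 210.0 in the other 7 livers. By contrast, several genes lay near or below the other controls in this library. CDKN1A was at 0.964 times their mean, CCND1 at 0.871, CDK4, the other kinase partner of the D-type cyclins, at 0.643, CCNG1 at 0.551, and RBL2 (p130), the RB-family protein abundant in resting cells, at 0.523.

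**Figure D1:**
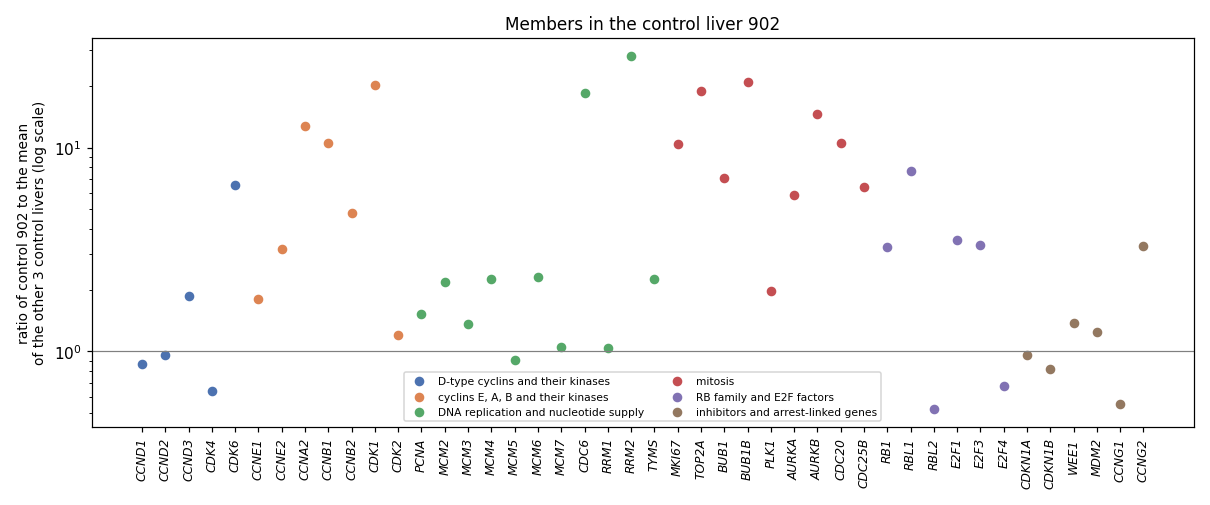
Ratio of each of the 44 genes in the control liver 902 to the mean of the other 3 control livers (y axis, log scale; the grey line marks a ratio of 1), with genes along the x axis coloured by role. Mitotic genes lie between 1.98 (PLK1) and 21.1 (BUB1B), whereas CDKN1A, CDKN1B, CCND1, CDK4, RBL2, E2F4 and CCNG1 lie below 1.

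The profile was not shared by the muscle of the same animal. MKI67 measured 26.8 normalized counts in the muscle of sheep 902, within 21.1 to 39.3 over the 8 muscles, and the median deviation of the 16 tested proliferation genes from the mean of the 8 muscles was -0.05 on the log2 scale. Cell-type markers of the control liver 902 departed from those of the other livers at the same time. Its hepatocyte markers summed to 40148, against 214557 to 1194871 in the other 7 livers. Its fibroblast and stellate cell markers (8 of 8 matched) summed to 116717, against 2616 to 7777, and its bile duct markers (6 of 6 matched) to 12783, against 300.6 to 865.7, with no marker at 0 in either list. It was also the shallowest of the 16 libraries. The part of cell makeup and of depth in these values was not tested. The plot of liver differences shows each gene's BPA difference with and without this library, and the text gives both where they differ in direction or by much.

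In liver, prenatal BPA left 0 of the 43 tested genes past the threshold (limma, Benjamini-Hochberg adjusted p of 0.05 over 15689 genes), as it did for 0% of all genes tested. At an unadjusted p under 0.05 there were 4, CDKN1A, PCNA, CCND1 and CCND3, all with lower estimates in BPA livers, which is 4 of 43 against 18.1% of all genes in either direction and 10.3% with lower estimates. edgeR called 0 of the 43 and DESeq2 called CDKN1A alone (196 genes in all). CDKN1A and PCNA were the only tested members whose 4 BPA livers all lay below the 4 controls, compared with 3.98% of all genes lying below, and 0 lay above, compared with 3.63% (7.61% in all). The estimates were lower in BPA livers for 29 of 43 genes, against 50.7% of all genes, but the 43 include the 7 that were tested only because of the control liver 902. Of the other 36 genes, 23 were lower with all 8 livers (median log2 difference -0.25, against 0.013 for all such genes). Without the control liver 902, 20 of the same 36 were lower (median -0.08) and 0 passed.

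CDKN1A, which encodes the cyclin-dependent kinase inhibitor p21, was the gene of the 44 with the smallest p in liver. It measured 141, 83.3, 52.4 and 88.2 normalized counts in BPA livers, against 352, 526, 287 and 284 in control livers. All 4 BPA livers lay below all 4 controls, and the highest BPA liver was the deep library of sheep 910. The means were 91.3 ± 36.9 in BPA livers and 362 ± 113 in control livers (SD, n = 4 each). The log2 difference was -2.02 (SE 0.36), with an adjusted p of 0.256 over all genes by limma. An exact two-sided permutation test over the 70 ways of splitting the 8 livers gave p = 0.0286, which is the smallest p this design can reach and the one that any gene without overlap gets. The gene had been singled out by earlier results, so this p is no independent support. Without the control liver 902 the log2 difference was -2.01 and the limma adjusted p 0.131. Without the BPA liver 910 the log2 difference was -2.25 and the adjusted p 0.00752, so that the call changed with this 1 library. In that fit 16.5% of all genes passed.

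Depth was uneven between the liver groups, since 3 of 4 BPA livers but only 1 of 4 controls had fewer than 15 M reads, and no batch is named in the labels. CDKN1A was lower in BPA livers within both depth classes. Among deep libraries it measured 141 in the single BPA liver and averaged 366 in 3 controls, and among shallow libraries it averaged 74.6 in 3 BPA livers and measured 352 in the single control. Each class thus sets 1 library against 3, and in the shallow class the single control is liver 902, so these values are a description. When depth class entered the model, an option added once the data had been seen, its log2 difference was -1.78 (limma adjusted p of 0.287).

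**Figure D2:**
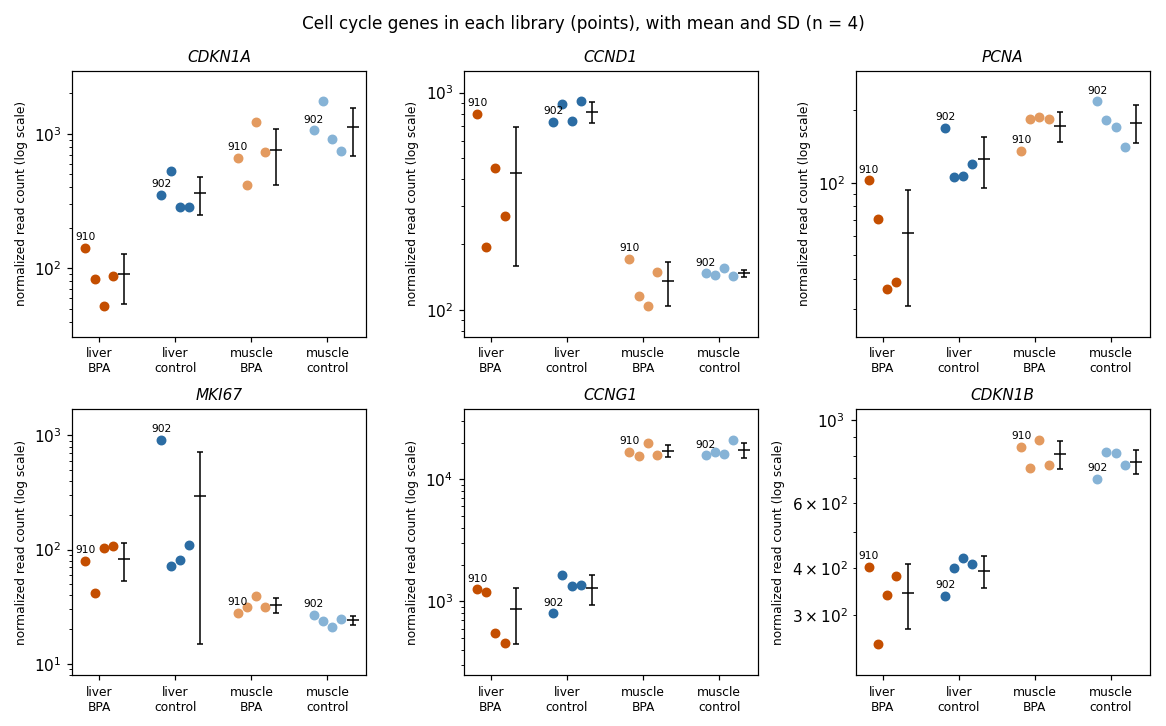
Normalized read counts (y axes, log scale) of CDKN1A, CCND1, PCNA, MKI67, CCNG1 and CDKN1B in each library, with the mean and SD of each group of 4 beside its points and sheep 910 and 902 labelled; for MKI67 in control livers the SD exceeds the mean and the lower bar is cut short above 0. The 4 BPA livers lie below the 4 control livers for CDKN1A and PCNA, and 1 control liver stands at 918 for MKI67.

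Macrophage and Kupffer cell markers (8 of 10 matched, none at 0) moved in the same direction as CDKN1A, with sums of 964 to 5659 in BPA livers and 6121 to 9139 in control livers. Fibroblast and stellate cell marker sums also did not overlap, at 2616 to 5611 in BPA livers and 5933 to 116717 in control livers (at most 7777 without the control liver 902). Without that library, hepatocyte marker sums did not overlap either, at 214557 to 971292 in BPA livers and 1061120 to 1194871 in the other 3 controls. All 6 matched markers then had lower estimates (median log2 difference -1.90). Of these, 5 had an unadjusted p under 0.05, as did 4641 of all 15283 genes in that fit. The 12 cytosolic ribosomal protein genes used to describe RNA makeup summed to 36532, 5505, 5509 and 4158 in BPA livers, against 17543, 37270, 39233 and 40662 in control livers. The 3 shallow BPA livers were therefore far below every control, and the BPA liver 910 was within the controls. The part of cell makeup and RNA makeup in the CDKN1A difference was not tested.

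The D-type cyclins, which couple growth signals to the cycle, and their kinases all had lower estimates in BPA livers (5 of 5, median log2 difference -0.62), and 0 passed. Without the control liver 902, 4 of 5 were lower (median -0.77). CCND1, encoding cyclin D1, measured 796, 194, 449 and 271 normalized counts in BPA livers, against 735, 882, 740.0 and 910 in control livers. The BPA liver 910 was within the controls and the other 3 BPA livers were below all of them. The log2 difference was -1.13 (SE 0.42, adjusted p of 0.256) with all livers, -1.18 without the control 902, and -1.50 (adjusted p of 0.0202) without the BPA liver 910. In the last of these fits 16.5% of all genes passed. CCND3, cyclin D3, showed the same arrangement at a log2 difference of -1.15 (-0.92 without the control 902), with 225, 54.1, 131 and 136 in BPA livers against 432, 228, 223 and 242 in control livers. CDK4 had a log2 difference of -0.62 (-0.77 without the control 902), and CCND2 one of -0.09. The CDK6 difference was -0.57 with all livers and 0.10 without the control liver 902.

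The cyclins of the E, A and B types and their kinases had a median log2 difference of 0.05 in liver, with 2 lower and 5 higher of 7. Single estimates ran from -2.16 for CDK1 to 0.28 for CCNE1. CDK1 had the smallest p of these 7. It measured 3.06, 0, 0 and 2.52 normalized counts in BPA livers, against 69.7, 2.06, 3.55 and 4.70 in control livers, with a log2 difference of -2.16 (SE 1.16, adjusted p of 0.329). Outside the control liver 902 it rested on at most 7 reads in any liver, and a count of 0 allows up to 6.25 and 3.74 normalized counts in the BPA livers 918 and 977, limits that cover counting error only. A BPA difference in CDK1 was therefore not detectable at this depth. Without the control liver 902, CDK1, CCNA2 and CCNB1 fell below the minimum mean, and the 4 remaining genes (CCNE1, CCNE2, CCNB2 and CDK2) all had higher estimates in BPA livers, of 0.11 to 0.60, with 0 past the threshold.

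Genes of DNA replication and nucleotide supply had lower estimates in BPA livers for 8 of the 10 tested (median log2 difference -0.52), with 0 past the threshold. RRM2 was 1 of the 8 and was tested only because of the control liver 902. On the other 9 genes the median was -0.49 with all livers and -0.24 without that library, with 7 lower in each fit. PCNA, the sliding clamp of the replicative polymerases, measured 102, 70.8, 36.2 and 38.6 normalized counts in BPA livers, against 170, 106, 107 and 119 in control livers. All 4 BPA livers were below all 4 controls, though the BPA liver 910 missed the lowest control by little. The log2 difference was -1.11 (SE 0.39, adjusted p of 0.256) with all livers, -0.96 without the control 902, and -1.39 (adjusted p of 0.0319) without the BPA liver 910. In the last of these fits 16.5% of all genes passed. Of the MCM2 to MCM7 genes, whose products form the replicative helicase, 5 had lower estimates, between -0.84 for MCM3 and -0.40 for MCM2, and MCM7 stood at 0.04. Without the control liver 902 MCM3 stood at -0.72, MCM4 at -0.52 (-0.82 with it) and MCM2 at -0.11. The thymidylate synthase gene TYMS stood at -0.45 (-0.16 without that library), and RRM1, the large subunit of ribonucleotide reductase, at 0.05. RRM2 stood at -1.64 with the control liver 902 and was below the minimum mean without it.

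The mitotic genes had lower estimates in BPA livers for 7 of 9 with the control liver 902 included, 3 of which were tested only because of it. On the other 6 genes, 4 were lower with all livers (median log2 difference -0.24) and 2 without that library (median 0.52). The MKI67 difference was -0.998 (SE 0.75, adjusted p of 0.461) with all livers and -0.15 (SE 0.39) without the control liver 902, and the 4 BPA livers overlapped the remaining controls. TOP2A moved likewise, at -1.08 with that library and -0.03 without it. BUB1, a spindle checkpoint kinase, stood at 0.307 and 0.998 in the same pair of fits, and PLK1, a kinase of spindle assembly, at 0.39 and 0.64. AURKA and AURKB, the aurora kinases, and CDC20, an activator of the anaphase-promoting complex, had too few reads outside the control liver 902 to be tested without it.

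Across cyclins E, A and B, replication and mitosis together, 17 of the 26 tested proliferation genes had lower estimates in BPA livers (median log2 difference -0.41), and 7 of the 26 were tested only because of the control liver 902. On the other 19 genes, 11 were lower with all livers (median -0.28) and 9 without that library (median 0.06). The RB and E2F families had 2 lower and 4 higher estimates of 6 (median 0.07), and 3 lower and 3 higher without the control liver 902 (median 0.32). E2F4, a repressive E2F factor of resting cells, measured 337, 140, 238 and 218 normalized counts in BPA livers, against 256, 381, 356 and 398 in control livers (log2 difference -0.62, SE 0.32, adjusted p of 0.313). The BPA liver 910 and the control liver 902 lay inside the range of the other group. E2F1, an activator of replication genes, stood at 0.73, RB1, the retinoblastoma protein gene, at 0.52, and RBL2 at 0.03, none past the threshold. When the control liver 902 was left out they stood at 1.18, 0.95 and -0.20, and E2F4 at -0.76. E2F1, RB1 and E2F4 then had an unadjusted p under 0.05, as did 4641 of all 15283 genes in that fit. After adjustment 0 of the 6 passed.

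The other inhibitors and arrest-linked genes did not follow CDKN1A in size. CDKN1B measured 404, 249.8, 339 and 381 normalized counts in BPA livers, against 337, 399.8, 425 and 411 in control livers. The groups overlapped, and the log2 difference was -0.21 (SE 0.26, adjusted p of 0.654). CCNG1, encoding cyclin G1, stood at -0.67 (SE 0.41), its relative CCNG2 at -0.12, and WEE1, the kinase that holds CDK1 inactive, at -0.18. MDM2, the ubiquitin ligase that degrades p53, stood at 0.27, with 1430.4 in the BPA liver 918 against 333 to 560 in the other 7 livers. The median over these 5 genes was -0.18, with 4 lower and 1 higher, and 0 passed. The median was -0.055 without the control liver 902, with 3 lower and 2 higher, since CCNG2 then stood at 0.32, and CCNG1 stood at -0.88. Leaving out each liver in turn gave medians of -0.306 to -0.042.

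Set library by library, CDKN1A and the proliferation genes were arranged differently in liver. The median deviation of the 26 proliferation genes from the mean of the 8 livers was -0.03, -0.16, -0.18 and -0.04 log2 units in BPA livers and 1.46, -0.49, -0.29 and 0.01 in control livers. The BPA livers thus lay inside the range of the controls. Only 19 of the 26 genes reached the minimum mean over the livers other than the control liver 902. Its 1.46, and deviations from a mean that includes it, rest partly on genes tested only because of that library. CDKN1A deviated by -0.30, -1.05, -1.71 and -0.97 in BPA livers and by 1.02, 1.59, 0.72 and 0.70 in control livers. The control liver 902, with the highest proliferation median, had CDKN1A inside the range of the other controls, and the control liver 908, with the lowest, had the highest CDKN1A. These medians are a description of 8 libraries and were given no test.

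**Figure D3:**
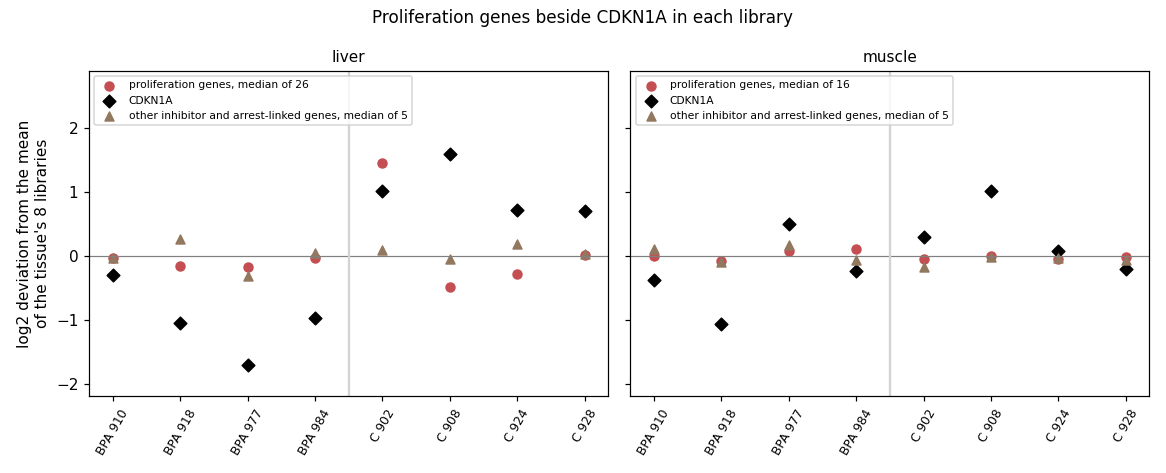
Deviation (y axis, log2 units, from the mean of the tissue's 8 libraries) of CDKN1A (diamonds), of the median proliferation gene (circles) and of the median of the other 5 inhibitor and arrest-linked genes (triangles) in each library; C marks controls. In liver the 4 BPA diamonds lie between -1.71 and -0.30 and the 4 control diamonds between 0.70 and 1.59, while the circles lie between -0.49 and 0.01 except in the control liver 902, at 1.46. The liver circles are medians over 26 genes, of which 19 reached the minimum mean over the livers other than that library.

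Leaving out both libraries that departed from their groups, the control liver 902 and the BPA liver 910, 12 of the 36 genes then tested passed in liver, in a fit where 43.1% of all 15296 genes passed. Lower in BPA livers were CCND1, CCND3, CCNG1, CDK4, CDKN1A, E2F4, MCM3, MCM5 and PCNA, and higher were BUB1, E2F1 and RB1. Without the BPA liver 910 alone, 5 passed, all lower (CCND1, CCND3, CDKN1A, MCM3 and PCNA), against 16.5% of all genes. The 3 BPA livers left in these fits are all shallow libraries with low ribosomal protein sums. In the fit without both libraries every control left is deep, so BPA and depth cannot be told apart there. In the fit without 910 alone the only shallow control is liver 902.

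**Figure D4:**
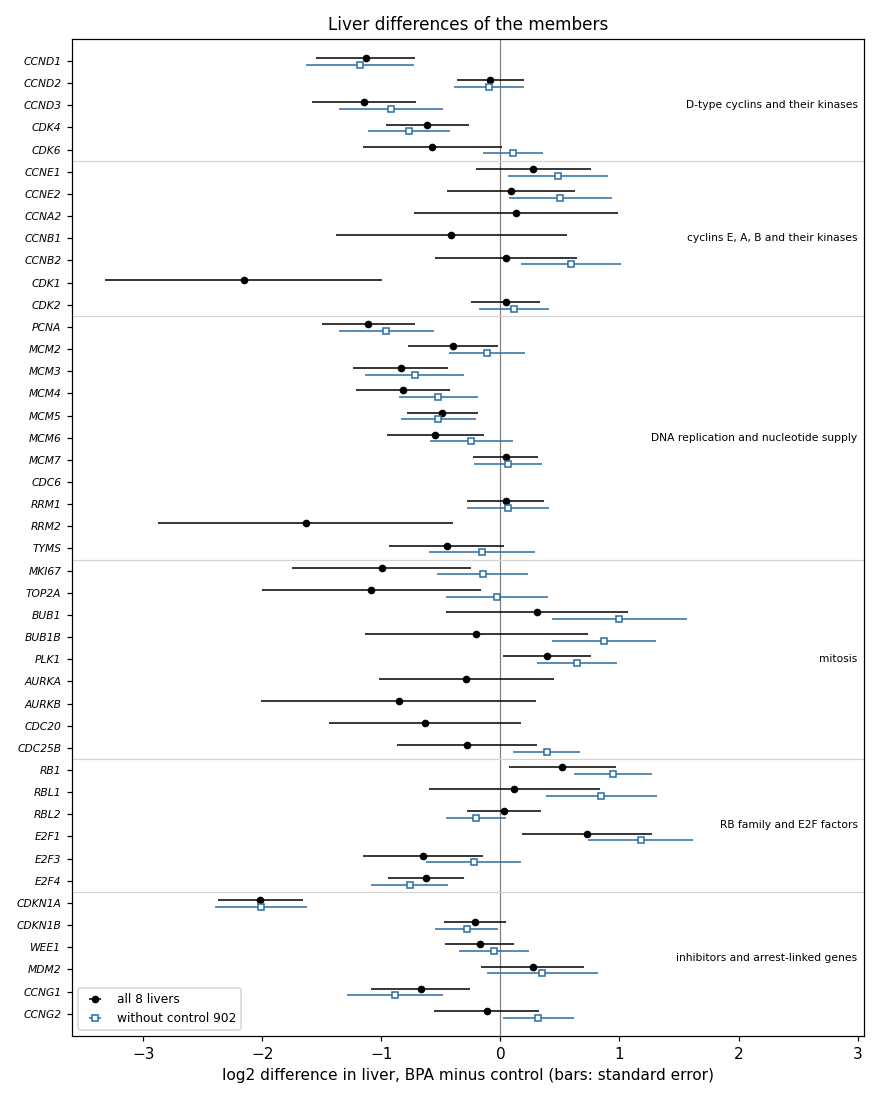
Log2 differences in liver, BPA minus control (x axis, bars are standard errors), for the genes grouped by role, with all 8 livers (filled circles) and without the control liver 902 (open squares); genes below the minimum mean in a fit have no symbol, as CDC6 in both. CDKN1A stands at -2.02 and -2.01 in the 2 fits, whereas MKI67 stands at -0.998 and -0.15.

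Other genes of the cell cycle were examined in 6 further lists, and in liver 0 of their 123 tested genes passed. The liver groups did not overlap for 1 of 5 other CDK inhibitors, 1 of 26 other p53 genes, 1 of 29 other mitotic genes and 1 of 17 ubiquitin ligase genes. Among other replication genes it was 0 of 33, and among other RB, E2F and DREAM complex genes 0 of 13, compared with 7.61% of all genes. Of the other CDK inhibitors, 4 of 5 had lower estimates in BPA livers (median log2 difference -0.92; 3 of 4 and -0.64 without the control liver 902), and the control liver 902 was the highest of the 8 livers for all 5. CDKN2D, an inhibitor of CDK4 and CDK6, measured 12.2, 4.16, 6.24 and 6.72 normalized counts in BPA livers, against 35.8, 12.4, 15.6 and 17.4 in control livers, so the groups did not overlap (log2 difference -1.33, adjusted p of 0.266). CDKN2C, a close relative of CDKN2D, stood at -1.81. Other p53 targets and regulators were lower for 19 of 26 (median -0.28), and for 17 of 26 without the control liver 902 (median -0.18). PHLDA3, a p53-induced inhibitor of AKT, measured 318, 152, 163 and 145 in BPA livers, against 654, 403, 297 and 382 in control livers (-1.17, adjusted p of 0.256), while MDM4, a p53 inhibitor, stood at 1.32.

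Other replication genes were lower for 20 of 33 (median log2 difference -0.06), and for 15 of 32 without the control liver 902 (median 0.028), with the single-strand binding protein gene RPA3 at -2.60 and RFC1, part of the clamp loader, at 1.04. Other mitotic genes were lower for 23 of 29 (median -0.30), and for 9 of 23 without the control liver 902 (median 0.26). MAD2L1, a spindle checkpoint gene, measured 10.7, 6.25, 3.74 and 3.36 normalized counts in BPA livers, against 45.2, 21.3, 12.8 and 15.4 in control livers, without overlap (-1.77, adjusted p of 0.256). Other RB, E2F and DREAM complex genes were lower for 5 of 13 (median 0.11), and for 2 of 10 without the control liver 902 (median 0.26), with E2F5 at 0.63. Ubiquitin ligase genes of the cell cycle were lower for 2 of 17 (median 0.43), and for 4 of 17 without that library (median 0.51). Among them ANAPC10, a subunit of the anaphase-promoting complex, measured 40.5, 160.3, 59.9 and 79.0 in BPA livers, against 13.2, 33.7, 39.8 and 22.1 in control livers, again without overlap (1.53, adjusted p of 0.256), and ANAPC11, another subunit, stood at -1.21.

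In muscle, prenatal BPA left 0 of the 33 tested genes past the threshold by limma, against 0.129% of 14706 genes. edgeR and DESeq2 each called 0, and CCNG2 alone had an unadjusted p under 0.05, against 7.77% of all genes. The estimates were lower for 16 of the 33, against 50.5% of all genes, with a median log2 difference of 0.03 and of -0.00218 over all genes. In 2 of the 33 genes the groups did not overlap, MKI67 above and E2F4 below, compared with 4.53% of all genes, 2.05% above and 2.48% below.

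MKI67 measured 27.9, 31.5, 39.3 and 31.6 normalized counts in BPA muscles, against 26.8, 23.6, 21.1 and 24.5 in control muscles. All 4 BPA muscles were above all 4 controls, on 25 to 41 reads in BPA muscles and 18 to 30 in control muscles, and the log2 difference was 0.42 (SE 0.20, adjusted p of 0.662). E2F4 measured 403, 492, 476 and 500.2 in BPA muscles, against 539, 568, 503 and 505 in control muscles. Its BPA values were all lower, by a log2 difference of -0.18 (SE 0.10, adjusted p of 0.702). TYMS, below the minimum mean and so untested, also did not overlap, at 4.46, 6.91, 5.61 and 5.67 in BPA muscles against 3.65, 3.37, 0 and 3.27 in control muscles, on 9 reads or fewer in any muscle library. Muscle satellite cell markers (5 of 6 matched) summed to 714.2 to 960.8 in BPA muscles and 675.4 to 941.4 in control muscles, and their part in the MKI67 values was not tested.

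CDKN1A measured 661, 413, 1216 and 730.4 normalized counts in BPA muscles, against 1063, 1739, 911 and 748 in control muscles. The groups overlapped, with means of 755 ± 336 in BPA muscles and 1115 ± 436 in control muscles (SD, n = 4 each). The log2 difference was -0.59 (SE 0.31, adjusted p of 0.697), and the exact two-sided permutation test gave p = 0.229. CCNG2, a cyclin G relative linked to arrest, measured 362, 323, 312 and 277 in BPA muscles, against 253, 284, 246 and 271 in control muscles (0.27, adjusted p of 0.555). Only the BPA muscle 984 fell below the highest control. CDKN1B measured 849, 741, 886 and 757 in BPA muscles, against 696, 822, 816 and 759 in control muscles, with overlapping groups (0.06).

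The remaining named genes overlapped between the muscle groups as well. CCND1 measured 172, 116, 104 and 149 normalized counts in BPA muscles, against 147, 144, 155 and 142 in control muscles (log2 difference -0.15, adjusted p of 0.854). PCNA measured 136, 184, 188 and 184 in BPA muscles, against 218, 183, 171 and 141 in control muscles (-0.04). CDK1 was nearly undetected, with 1, 0, 1 and 7 reads in BPA muscles and 0, 4, 4 and 2 in control muscles. The smallest p values of the D-type cyclin, cyclin E, A and B, and replication groups belonged to CDK6 (0.20), CDK2 (0.25) and MCM6 (0.19), with adjusted p of 0.747 to 0.801. CDK6 measured 162, 124, 145 and 142 in BPA muscles against 124, 109.6, 126 and 139 in control muscles. CDK2 measured 107, 119.7, 115 and 126 in BPA muscles against 102, 113, 73.9 and 108 in control muscles, and MCM6 130.4, 91.3, 104 and 98.9 against 94.97, 110.4, 84.5 and 80.9. The median log2 difference of the 16 tested proliferation genes was 0.05, and that of the 5 arrest-linked genes without CDKN1A 0.06.

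Of the further lists in muscle, 0 of their 103 tested genes passed. The muscle groups did not overlap for 3 of 26 other p53 genes and 1 of 16 ubiquitin ligase genes. In the remaining lists there were 0 such genes, compared with 4.53% of all genes. The nearest was BTG2, a p53 target that restrains proliferation. It measured 1521, 1814, 2045 and 1672 normalized counts in BPA muscles, against 603, 1016, 659 and 1136 in control muscles. All BPA muscles were higher than all controls (log2 difference 1.09, SE 0.19, adjusted p of 0.0697). PLK3, a stress-responsive kinase, stood at 0.52 (adjusted p of 0.517), and FBXW7, the ubiquitin ligase subunit that targets cyclin E, was lower without overlap, at 453, 539, 467 and 471 in BPA muscles against 571, 593, 609 and 591 in control muscles (-0.29, adjusted p of 0.334). LIN52, a subunit of the DREAM complex, stood at 0.35, CDT1, a replication licensing factor, at 0.44, the checkpoint gene BUB3 at 0.15 and the inhibitor gene CDKN1C at 0.15.

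Whether the BPA effect differed between liver and muscle was then tested in the 33 genes with a mean of at least 10 in each tissue. By limma 0 of 33 passed, as did 0% of 13677 genes, and edgeR and DESeq2 also called 0 of the 33. CDKN1A, CCND1, CCND3 and PCNA had an unadjusted p under 0.05, against 19.5% of all genes. The estimate was lower in liver for 23 of the 33, against 52.3% of all genes. The CDKN1A effect in liver minus that in muscle was -1.42 log2 units (SE 0.51, adjusted p of 0.207), so its difference was not shown to be particular to liver. Without sheep 910, 5 genes passed, CCND1, CCND3, CDKN1A, MCM3 and PCNA, each with a lower effect in liver, in a fit where 22.1% of all 13653 genes passed. With the animal as a block, 0 passed.

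Between the tissues themselves, 25 of the 39 genes tested passed (64.1%, against 71.4% of 15995 genes), with 15 lower in liver, against 35.3% of all genes, and 10 higher, against 36.1%. The groups of 8 libraries did not overlap for 12 of the 39, against 41.6% of all genes, 6 lying below in liver, against 21.2%, and 6 above, against 20.4%. With the animal as a block 23 of the 25 passed, CCND2 and RBL1 being lost (adjusted p of 0.0589 and 0.0583). Both were also lost without sheep 902. For 6 of the 39 the mean of 10 was not reached in muscle and rested on liver (CCNA2, CCNB2, TYMS, BUB1B, AURKA and CDC20), so their direction was favoured by the filter. On the 33 genes that reached it in each tissue, 22 passed, 15 lower and 7 higher in liver, against 68.6% of 13677 genes.

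Of the 6 inhibitors and arrest-linked genes, 4 passed lower in liver, against 35.3% of all genes, and 1 passed higher, against 36.1%. CCNG1 measured 454, 1225 and 1645 normalized counts in liver (lowest, median and highest of 8) and 15566, 16462 and 21097 in muscle, a log2 difference of -4.11 (SE 0.22, adjusted p of 8.5e-11) with no overlap. CDKN1A measured 52.4, 213 and 526 in liver and 413, 829 and 1739 in muscle (-2.30, adjusted p of 5.33e-07), overlapping through the control liver 908 alone. That liver was above the BPA muscle 918. CDKN1B, whose product is abundant in resting cells, was lower in liver without overlap, at 249.8, 390.1 and 425 in liver against 696, 787 and 886 in muscle (-1.11). WEE1 went the other way, with 185, 294 and 390.1 in liver against 42.1, 54.4 and 83.6 in muscle (2.25, no overlap). CCNG2 was lower in liver (-0.96) and MDM2 did not pass (0.05).

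**Figure D5:**
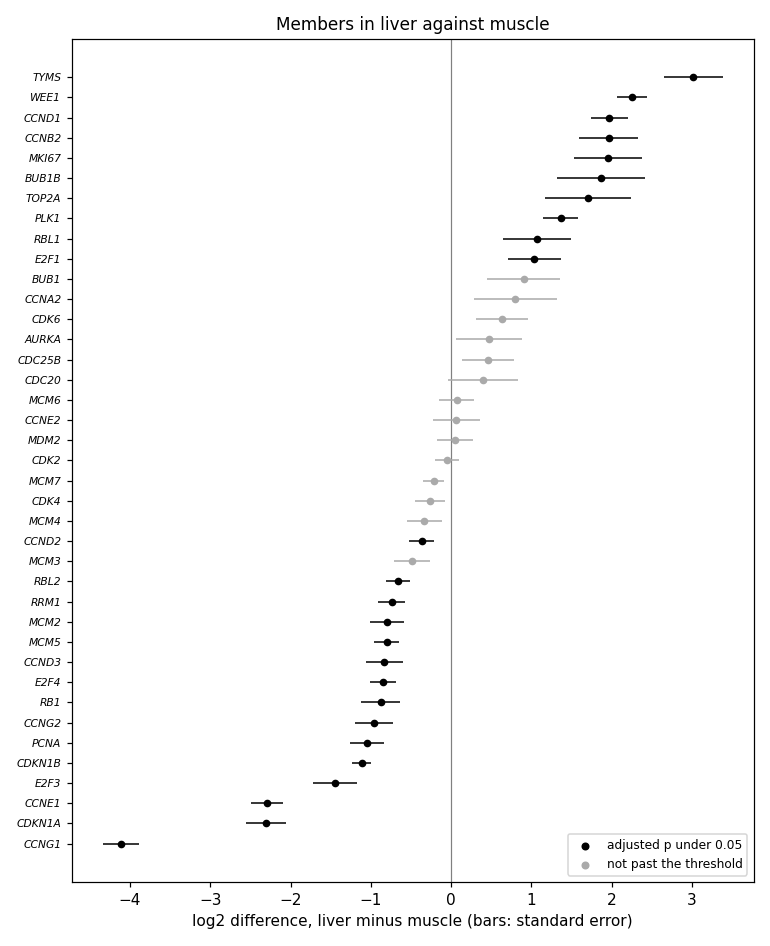
Log2 differences between tissues, liver minus muscle (x axis, bars are standard errors), for the 39 genes tested, ordered by size; black points passed an adjusted p of 0.05 by limma and grey points did not. The points run between CCNG1 at -4.11 and TYMS at 3.01.

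Among the 44 genes, those of proliferation split by role between the tissues. All 5 mitotic genes that reached the minimum mean in each tissue had higher estimates in liver. Of them 3 passed (MKI67, TOP2A and PLK1), against 68.6% of all genes that reached it in each tissue. MKI67 measured 41.6, 92.0 and 918 normalized counts in liver and 21.1, 27.3 and 39.3 in muscle (lowest, median and highest), without overlap (log2 difference 1.95, adjusted p of 5.81e-04). PLK1 (1.37) was likewise above muscle without overlap, while TOP2A (1.70) passed with overlapping tissues, as did BUB1B (1.87), which was tested only because of its liver values. Without sheep 902 TOP2A stood at 0.998 (adjusted p of 0.00319) and MKI67 at 1.55. DESeq2 gave no adjusted p for MKI67, TOP2A and BUB1B. Of the 9 replication genes tested, 4 passed lower in liver, PCNA (-1.05), MCM2 (-0.80), MCM5 (-0.80) and RRM1 (-0.74), against 35.3% of all genes. TYMS, tested only because of its liver values, passed higher, against 36.1% of all genes. TYMS measured 15.1, 33.1 and 77.3 in liver and 0, 4.05 and 6.91 in muscle (3.01, adjusted p of 1.73e-06), without overlap. PCNA measured 36.2, 104 and 169.6 in liver and 136, 184 and 218 in muscle, overlapping through the control liver 902 alone. The other replication genes did not follow this split. Of 33 tested, 21 had higher estimates in liver (median log2 difference 0.34), with 13 passing higher and 6 lower. Of 24 other mitotic genes tested, 17 were higher (median 0.71), with 11 passing higher and 3 lower. Over all 6 further lists 69 of 115 tested genes passed, against 71.4% of all genes, 36.1% higher and 35.3% lower. The minimum mean here was over all 16 libraries, so some of these genes may rest on 1 tissue.

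The cyclins diverged from one another. CCND1 was higher in liver without overlap, at 194, 737 and 910 normalized counts (lowest, median and highest) against 104, 146 and 172 in muscle (log2 difference 1.97, adjusted p of 1.04e-06), whereas CCND3 was lower (-0.83). CCND2 (-0.37) passed without the block and not with it. CCNE1, cyclin E1, was lower in liver without overlap, at 7.57, 11.9 and 16.96 against 53.9, 58.8 and 88.3 in muscle (-2.29, adjusted p of 2.94e-08), and CCNE2 did not pass (0.06). CCNB2, cyclin B2, likewise tested only because of its liver values, was higher in liver without overlap, at 12.99, 19.2 and 71.6 against 2.43, 5.24 and 9.83 in muscle (1.96). All 6 RB and E2F genes passed, against 71.4% of all genes tested. RB1 (-0.88), RBL2 (-0.66), E2F3 (-1.45) and E2F4 (-0.84) were lower in liver. RBL1 (1.07, but 0.56 and not past the threshold without sheep 902) and E2F1 (1.04) were higher. RBL2 and E2F4 did not overlap, with RBL2 at 559.7, 1001 and 1208 in liver against 1340.4, 1419 and 1654 in muscle.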

How the data were processed

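Sequenced were liver and muscle of 8 sheep, 4 per group. A SMARTer low-input kit was used after ribosomal depletion, per the labels' protocols. Trimmomatic, FastQC and DESeq2 1.24.0 are named in the submitters' processing notes. The sources used here do not give aligner, read counter, annotation, genome build or strandedness, so genes sharing reads with near-identical copies or overlapping antisense genes are uncertain. The authors deposited 1 table of normalized signal, that is, counts divided by a size factor per library. Within 0.1 read, at least 99.996% of values in each library were whole multiples of 1 step, so whole reads could be recovered. Nothing in the labels describes separate RNA preparations, and each library of a group comes from a separate animal.

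Computed here were limma 3.58.1 fits (R 4.3.3, eBayes with intensity trend) on log2(value + 1), keeping genes that averaged 10 or more in the tissue (over 16 libraries between tissues, in each tissue for the difference of effects), with Benjamini-Hochberg adjustment over all genes tested. Adjusted p-values are limma's unless another tool is named. Differences on this scale understate those of low genes. Alternatives were a pseudocount of 5, no filter, a mean of at least 50, TMM scaling, edgeR 4.0.16 (quasi-likelihood) and DESeq2 1.42.0 on recovered reads, 1 fit over 16 libraries, the animal as a block, depth class (15 M reads, M standing for 1e6) and a minimum mean over the livers other than control 902 or in each tissue (these added after seeing the data), and leaving out libraries or animals. On recovered reads edgeR called 0 genes in liver, 19 in muscle, 11622 between tissues and 0 for the difference of effects. The scripts were tested on simulated data.

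The 44 genes and all lists were chosen with earlier results of these data known. Given in every library are CDKN1A, CDKN1B, CCND1, PCNA, MKI67 and CDK1, the smallest p of each role in each tissue, and genes whose groups do not overlap. Genes past the threshold between tissues are given by differences, the leading ones with their lowest, median and highest value. Of the further lists, those with the smallest p are named, and genes named besides were chosen after their values were seen. Per the labels, the same sheep number in both tissues is the same animal, so the tissues are paired. Deviations of an animal's liver and muscle from their group means correlated across genes by -0.10 to 0.12, and at best by 0.09 to 0.17 with another animal's muscle, so the pairing rests on the labels. Gene symbols of all 44 matched the RefSeq gene table.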

Additional observations from a re-analysis of the deposited data

Results flagged for a closer look

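Within a group of 4 libraries, 1 library was set apart when its distance to the nearest of the other 3 took up most of the group's range (Dixon's ratio at the 95% level), which chance alone gives in about 1 of 20 groups. Of the genes tested here, 23 values were set apart in this way. In control livers 18 of 43 genes (41.9%, against 26.7% of all genes) had 1 library apart. In every one of the 18 it was the control liver 902 on the high side. For 7 of the 18 the minimum mean was reached only through that library. Its mitotic values were 917.7 normalized counts for MKI67, 582.3 for TOP2A, 222.4 for BUB1B, 92.33 for BUB1, 45.22 for AURKA, 64.07 for AURKB, 96.1 for CDC20 and 563.4 for the phosphatase gene CDC25B. Its cyclin and kinase values were 431.5 for CCND3, 1035 for CDK6, 67.84 for CCNA2, 43.34 for CCNB1, 71.61 for CCNB2 and 69.72 for CDK1. The other 4 were 109.3 for RRM2, 491.8 for RB1, 235.5 for RBL1 and 131.9 for E2F3.

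In BPA livers 3 of 43 genes (6.98%, against 14.7% of all genes) had 1 library apart. MCM2 was low at 60.38 in the BPA liver 918, RBL1 was high at 131.2 in the same liver, and E2F1 was low at 30.57 in the BPA liver 910. In muscle, PCNA was low at 135.9 in the BPA muscle 910 (1 of 33 genes, 3.03%, against 5.3% of all genes), and MCM2 was high at 201.1 in the control muscle 928 (1 of 33, against 5.8%).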

How the results depend on the processing

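Of the counts of genes past the threshold and the medians of gene groups, 61 values recomputed with 1 library or animal left out and 63 recomputed under other settings stayed within the spread between libraries or near the count given, and 3 of each kind did not. In liver, the number of genes past the threshold was 0 with limma, 1 with DESeq2, 4 with all 16 libraries in 1 fit, 0 to 5 when leaving out 1 library (5 without the BPA liver 910) and 12 without both the control liver 902 and the BPA liver 910. Of all genes, 16.5% passed without the BPA liver 910 and 43.1% without both libraries. No share of all genes is given for the fit over 16 libraries, so its 4 genes are not read as a result. For the difference between tissues in the BPA effects it was 0, and 0 to 5 when leaving out 1 animal (5 without sheep 910). The cause of these changes was not tested. The median log2 difference of proliferation genes in liver was -0.88 with depth class as a covariate, against -0.41 over the 26 genes tested. Without the control liver 902 it was 0.06 over the 19 genes then tested, whose median was -0.28 with all 8 livers. Both of these liver medians were counted above as staying within the spread between libraries, although the second changed sign. That spread was wide because it includes the control liver 902, so the liver medians are not shown to be stable. In muscle the median ran from -0.017 (without the BPA muscle 977) to 0.080 when leaving out 1 library. CDKN1A in liver kept its direction in all 18 alternatives, with log2 differences of -2.25 to -1.78 and adjusted p of 0.00156 to 0.518, and passed in 4. Since all its BPA livers lay below all controls, leaving out libraries could not have reversed that direction. PCNA in muscle, near 0 at -0.04, ran from -0.144 to 0.074 when leaving out 1 library, with 0.065 without the control muscle 902 and 0.074 without the BPA muscle 910. With the animal as a replicate block, 23 genes were past the threshold between tissues, and 0 where the BPA effects of the tissues were set against each other. No block applies within a tissue, where each animal belongs to 1 group. Depth limits CDK1, CDC6, RRM2, AURKB, CCNA2 and CCNB1, which had at most 13 reads in any liver other than the control liver 902.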
